A study of Mus musculus with 45 samples.

Results

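The 39 genes described here encode the proteins that licence and fire replication origins, unwind and copy DNA, join the copied strands and make deoxynucleotides. The set was a list of gene symbols: 6 subunits of the MCM helicase, 10 genes for origin licensing and firing, 6 for the sliding clamp and its loader, 6 for polymerases and primase, 5 for single-strand binding and strand joining, 5 for nucleotide synthesis, and the transcription factor gene E2f1. All 39 were found among the 23420 genes of the count table, and all 39 passed the filter on low counts that left 14668 genes for testing.

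RNA was measured in T cells sorted from mice bearing B16 tumours, a transplantable mouse melanoma. Regulatory T cells (Tregs), CD4 T cells that restrain immune responses through the transcription factor Foxp3, were taken from the tumour and from lymph nodes that do not drain it, and effector T cells (Teffectors) from the tumour. The study set Tregs lacking Nrp1, a cell surface receptor, against Tregs that have it, in both tissues, and tumour Tregs against tumour Teffectors. Each of the 9 groups had 5 libraries, with replicates 2, 3 and 4 from single sorting and ds1 and ds2 read from their names as double-sorted. The Treg groups in each tissue were called N, HetNrp1def, HetWT and WT. HetNrp1def and HetWT Tregs came from heterozygous mice and are the Nrp1-deficient and Nrp1-sufficient cells of those mice, WT Tregs came from wild-type mice, and Teffectors were from wild-type mice. The N samples carry the same genotype label as HetNrp1def, and were kept apart by their titles. The design text also names homozygous Nrp1-deficient mice, but no label states that N came from them. The sources used here do not give the Nrp1 allele, any Cre driver, or the age and sex of the mice. No label ties the replicates to separate animals, so every p-value measures only how far these samples spread, and that spread may be technical.

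DNA is copied once in each cell cycle, in S phase. In G1 the origin recognition complex, Cdc6 and Cdt1 load the MCM helicase onto DNA, and Cdc45 and GINS then join MCM to start the forks. E2F transcription factors switch on many of these genes at entry into S phase, and T cells, which rest outside an immune response, make replication proteins when they divide.

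E2F proteins bind short letters in promoters, so the promoters of the set were searched for them. Of the genes whose levels differed between Tregs and Teffectors, Mcm5 and Mcm6 held matches before the start and Rrm2, which differed most evenly, held none, so these 3 are shown. RefSeq start sites gave windows, from 250 bases before to 50 bases after the start, for 32 of the 39 genes. Of these, 3 had more than 1 window, and a gene was counted where any of its windows held the letters. There was no window for Gins1, Gins2, Gins4, Mcm4, Pole, Prim2 and Rfc2. The letters TTTCCCGC, TTTCGCGC, TTTGCCGC and TTTGGCGC, on either strand, were found for 12 of the 32 genes (37.5%) and for 481 of the 10776 tested genes with a window (4.46%). The runs printed are the 250 bases before the RefSeq start in GRCm38.p6, which is mm10, written in the direction of the gene. Mcm5, a subunit of the MCM helicase, lies on the + strand and is shown at chr8:75109259-75109508. Its capitals mark a pair of overlapping matches, 1 on each strand. Mcm6, another subunit, lies on the - strand and is shown at chr1:128359706-128359955. Its capitals mark 3 matches, of which the first pair overlap. Rrm2, the small subunit of ribonucleotide reductase, lies on the + strand and is shown at chr12:24708004-24708253. It had no E2F match, and its capitals mark a CCAAT box, the letters bound by NF-Y. Mcm5 and Mcm6 each held 2 CCAAT matches before the start as well, which are left in small letters.
Mcm5: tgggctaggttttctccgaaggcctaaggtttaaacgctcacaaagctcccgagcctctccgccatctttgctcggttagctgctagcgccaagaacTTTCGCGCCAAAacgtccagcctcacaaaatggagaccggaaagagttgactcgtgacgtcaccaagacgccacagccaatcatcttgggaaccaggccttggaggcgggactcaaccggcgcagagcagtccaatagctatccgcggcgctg
Mcm6: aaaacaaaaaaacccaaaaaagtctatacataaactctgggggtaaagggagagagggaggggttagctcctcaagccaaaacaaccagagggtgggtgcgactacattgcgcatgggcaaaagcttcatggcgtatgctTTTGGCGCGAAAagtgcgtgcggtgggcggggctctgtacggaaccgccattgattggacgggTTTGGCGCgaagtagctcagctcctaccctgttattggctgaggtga
Rrm2: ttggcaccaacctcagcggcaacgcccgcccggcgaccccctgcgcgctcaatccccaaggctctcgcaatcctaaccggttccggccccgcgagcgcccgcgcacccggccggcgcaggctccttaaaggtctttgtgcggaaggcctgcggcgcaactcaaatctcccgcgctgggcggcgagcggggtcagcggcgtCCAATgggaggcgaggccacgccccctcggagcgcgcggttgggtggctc

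The 12 genes with the E2F letters were Cdc6, Cdt1, Gins3, Lig1, Mcm3, Mcm5, Mcm6, Mcm7, Orc1, Pola1, Pold1 and Rfc3. CCAAT, on either strand, was found for 20 of the 32 genes (62.5%) and for 42.5% of the tested genes with a window. TTTGAA or TTCGAA, the letters of the CHR element found in promoters of mitosis genes, were found for 6 of the 32 genes (18.8%) and for 16.6% of the tested genes with a window. A match describes letters in a window, and no match says only that these letters are not in it.

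**Figure D1:**
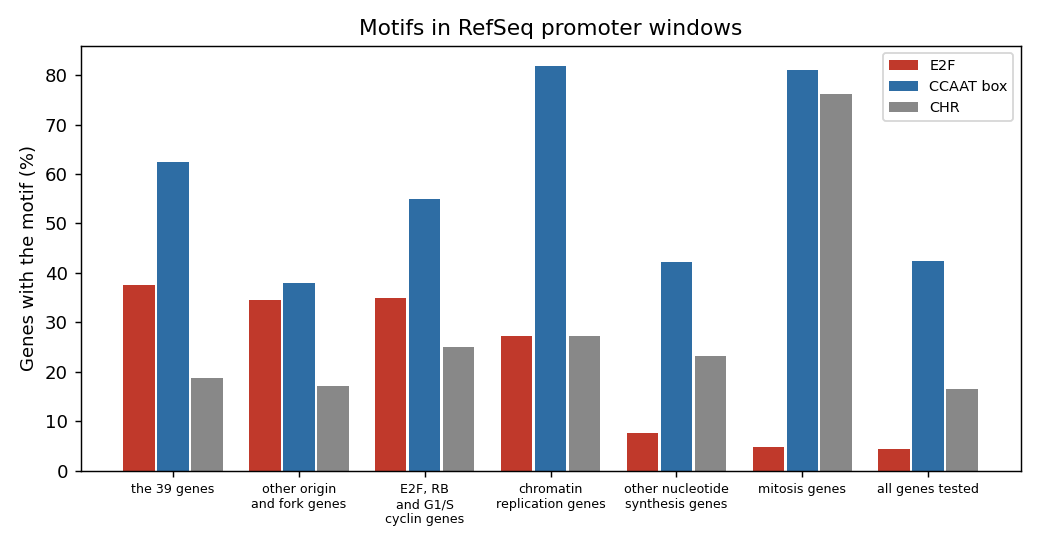
Bars give the percentage of genes for which any RefSeq promoter window held the E2F letters (red), CCAAT (blue) or the CHR letters (grey), for the 39 genes, for 5 other lists of cell cycle and nucleotide genes, and for all genes tested with a window. The E2F bar stands at 37.5% for the 39 genes and at 4.46% for all genes tested.

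In 4 pairs of libraries the 2 replicates of 1 group differed by less than the limit set for near-identical counts (chi-square per degree of freedom 2.42 to 2.75, against at least 68.4 for the other 86 pairs within groups). Each pair was joined and counted as 1 sample, which left 41: 18 tumour Treg, 18 lymph node Treg and 5 Teffector samples. Library totals ran from 2945638 to 35787148 counts (median 10248080), and the ds2 libraries were the shallowest, at 2945638 to 5408375. Mean Nrp1 was 154 CPM (counts put on a common depth by library size) in N, 154 in HetNrp1def and 155 in HetWT tumour Tregs against 171 in WT tumour Tregs, so that in tumours the label was not visible in the counts of this gene. In lymph node Tregs it was 211 CPM in N, 197 in HetNrp1def and 582 in HetWT, against 359 in WT. The highest HetWT lymph node sample had 1434 CPM, and the median was 337 there, against 388 in WT lymph node Tregs. Foxp3 averaged 22.9 ± 15.7 CPM in tumour Tregs, 15.5 ± 23.4 in lymph node Tregs (with 1 sample at 0) and 0.382 ± 0.693 in Teffectors (SD, n = 18, 18 and 5).

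The mean log2 CPM of the 39 genes was highest in tumour Tregs and lowest in Teffectors. It was 5.69 ± 0.31 in tumour Tregs (SD, n = 18, range 5.15 to 6.27), 5.14 ± 0.48 in lymph node Tregs (n = 18, 3.79 to 5.91) and 3.65 ± 0.22 in Teffectors (n = 5, 3.36 to 3.96). All tumour Treg samples lay above all Teffector samples, all lymph node Treg samples but 1 did so too, and tumour and lymph node Tregs overlapped. Single-sorted samples had higher means than double-sorted ones in each kind of cell: 5.82 and 5.42 in tumour Tregs, 5.43 and 4.79 in lymph node Tregs, and 3.77 and 3.46 in Teffectors. The joined HetNrp1def and HetWT tumour samples, each of ds1 with replicate 4, were counted as single-sorted, and their sorting is uncertain. In sorted bulk samples, fewer dividing cells and less RNA of these genes per cell cannot be told apart.

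**Figure D2:**
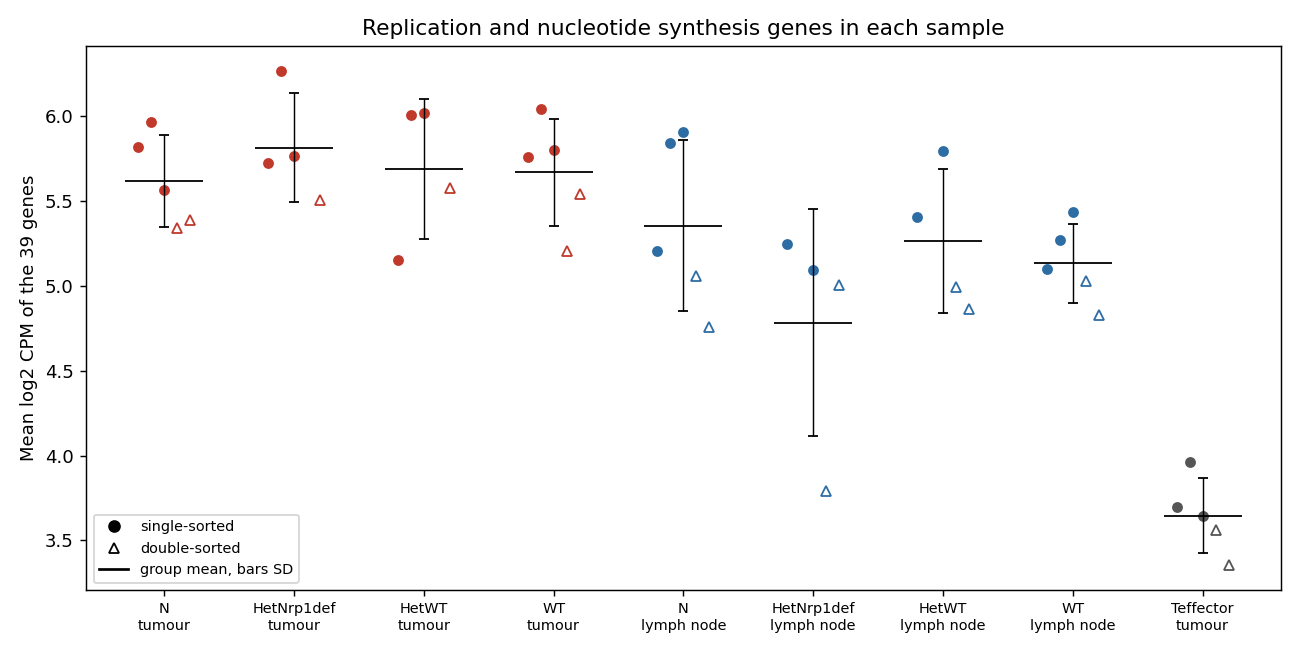
Each point is the mean log2 CPM of the 39 genes in 1 sample, by group, with single-sorted samples as dots and double-sorted samples as open triangles, and lines and bars give the group mean and SD. Tumour Tregs (red) run from 5.15 to 6.27, lymph node Tregs (blue) from 3.79 to 5.91 and Teffectors (grey) from 3.36 to 3.96.

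Tumour Tregs, taken as the average of the N, HetNrp1def, HetWT and WT groups, had higher levels of 13 of the 39 genes than tumour Teffectors, and lower levels of 0 (edgeR's quasi-likelihood test, Benjamini-Hochberg adjusted p under 0.05 over all 14668 genes). Of all genes tested, 5.43% were higher and 5.79% lower by the same rule. At an unadjusted p under 0.05, 19 of the 39 were higher and 0 lower, where 1601 and 1773 of all 14668 genes were. The log2 fold change was positive for 34 of the 39, with a median of 1.28, against a median of -0.13 over all genes tested. DESeq2 called 18 higher and 0 lower, and limma on the authors' log2 values called 8 higher and 0 lower. Counts under such alternatives, here and below, come without the share of all genes called, unless stated. They show only how many of the 39 passed.

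All 5 nucleotide synthesis genes were among the 13, with a median log2 fold change of 2.15. Rrm2 (chr12:24708241-24714146, + strand) encodes the subunit of ribonucleotide reductase whose level varies over the cell cycle. Its lowest, median and highest CPM were 59.0, 177 and 329 in the 18 tumour Treg samples and 33.5, 120 and 948 in the 18 lymph node Treg samples, against 25.8, 7.42, 11.9, 3.45 and 0 in Teffector replicates 2, 3, 4, ds1 and ds2 (the order kept for Teffectors below). The groups did not overlap: every Treg sample of either tissue lay above every Teffector sample. The log2 fold change of tumour Tregs over Teffectors was 4.18 (SE 0.62, edgeR adjusted p = 1.41e-06). Rrm2 was the 1 gene of the 39 with no overlap between tumour Tregs and Teffectors. That separation was seen in 2.27% of all genes tested, so the 1 of 39 stood near that background. Rrm2 was also the 1 with no overlap between lymph node Tregs and Teffectors, seen in 0.430% of all genes.

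Tk1 (chr11:117815526-117826092, - strand) encodes cytosolic thymidine kinase, which salvages thymidine. Its lowest, median and highest CPM were 1.43, 73.3 and 138 in tumour Tregs and 0.451, 29.2 and 101 in lymph node Tregs, against 0.278, 0.161, 0, 0.972 and 6.58 in Teffectors. All but 1 of the tumour Treg samples lay above all Teffectors, the exception being N replicate ds1. The log2 fold change over Teffectors was 5.69 (SE 0.96, edgeR adjusted p = 1.53e-05), and rested on 43 reads in the 5 Teffector samples together.

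Tyms (chr5:30058202-30073617, - strand) encodes thymidylate synthase, which makes dTMP from dUMP. Its lowest, median and highest CPM were 55.3, 141 and 460 in tumour Tregs, against 19.98, 77.8, 55.8, 14.1 and 12.01 in Teffectors. The low end of the Tregs overlapped the upper Teffectors, and the log2 fold change was 2.15 (SE 0.49, edgeR adjusted p = 0.0015).

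Rrm1, the large subunit of ribonucleotide reductase, had 89.4, 161 and 306 CPM in tumour Tregs (lowest, median, highest), against 28.6, 91.5, 54.3, 2.05 and 28.0 CPM in Teffectors. The groups met at a single point, where 1 Teffector sample lay just above the lowest Treg, and the log2 fold change was 2.01 (SE 0.55, adjusted p = 0.0106). Dut, the dUTPase that keeps uracil out of DNA, had 93.5, 131 and 275 CPM in tumour Tregs, against 28.3, 58.0, 43.2, 96.4 and 38.3 CPM in Teffectors. It too overlapped through 1 Teffector sample, ds1, and its log2 fold change was 1.48 (SE 0.43, adjusted p = 0.0165).

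**Figure D3:**
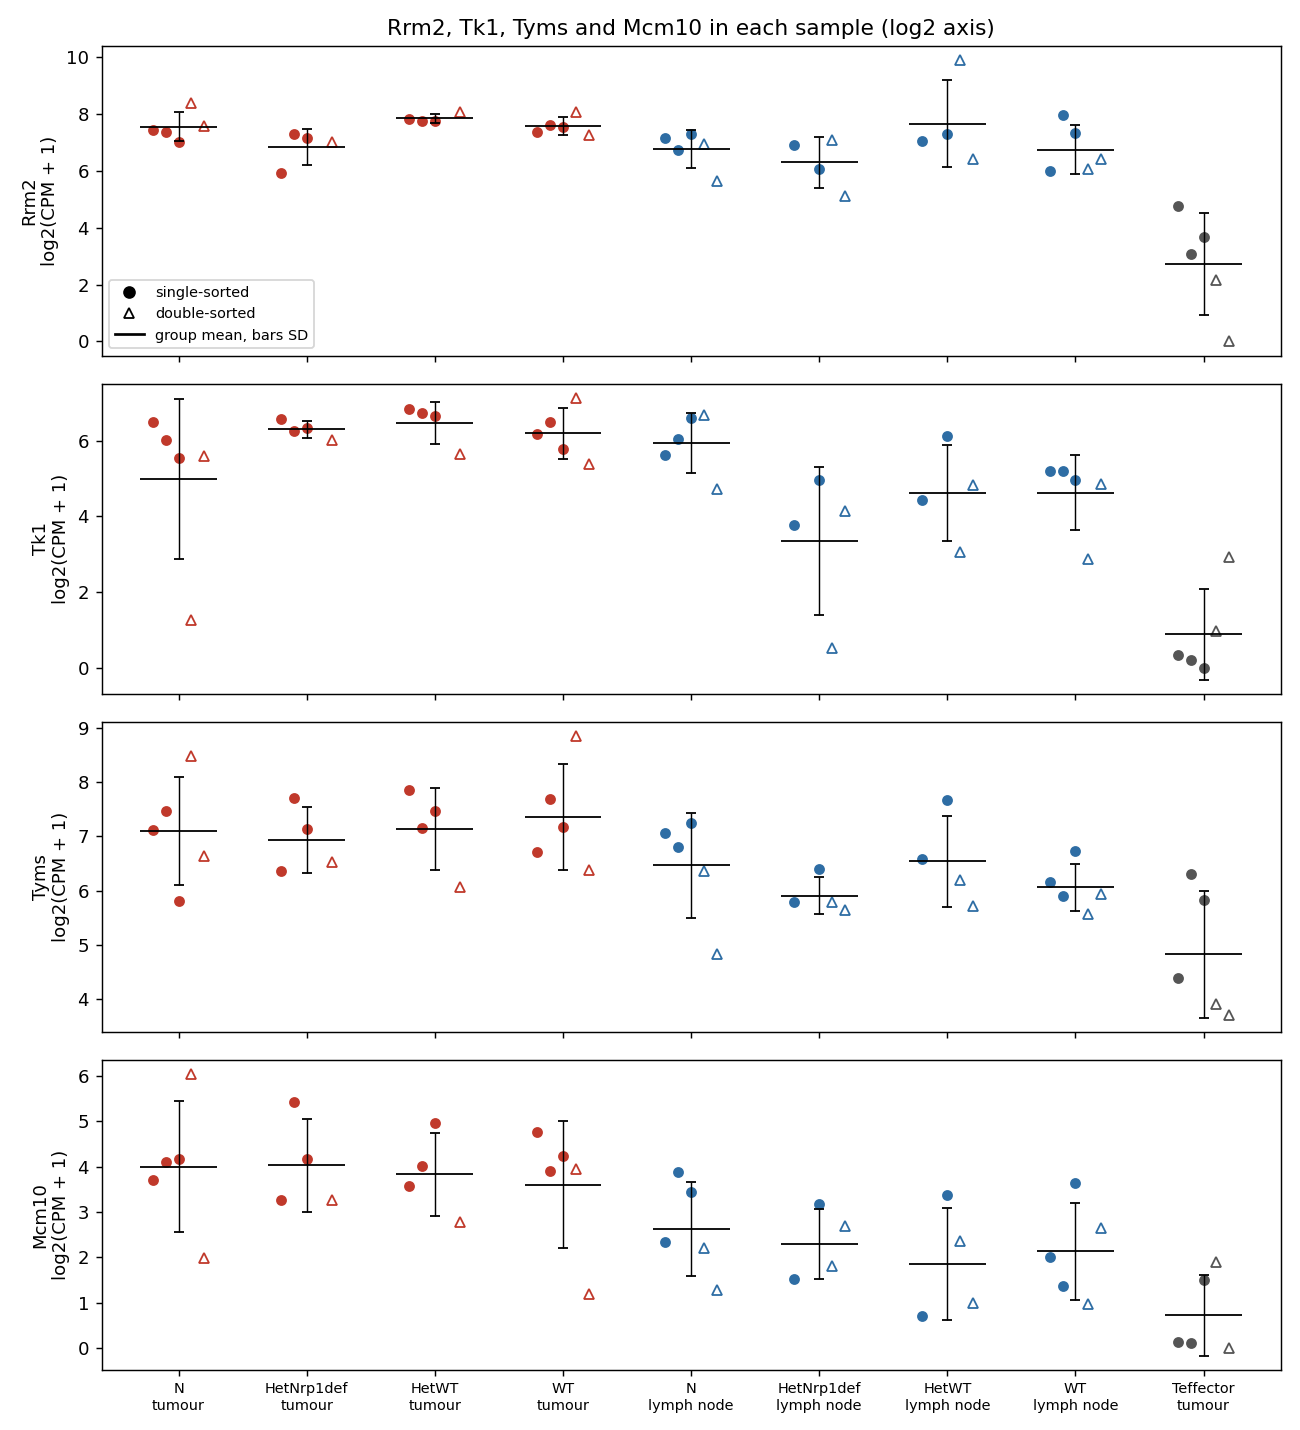
Each panel gives log2(CPM + 1) of 1 gene in every sample, by group, with single-sorted samples as dots, double-sorted samples as open triangles, and the group mean and SD as lines and bars. For Rrm2 no Treg sample reaches down to the Teffectors, while Tk1, Tyms and Mcm10 each have samples that overlap.

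Of the 6 subunits of the MCM helicase, the ring that unwinds DNA at the fork, 4 rose over Teffectors and the median log2 fold change was 1.47. Mcm3 had 59.9, 137 and 187 CPM (lowest, median, highest) in tumour Tregs, against 39.3, 21.1, 87.6, 1.94 and 27.7 CPM in Teffectors, and a log2 fold change of 1.88 (SE 0.47, edgeR adjusted p = 0.0040). Mcm6 had 71.5, 264 and 400 CPM in tumour Tregs, against 92.3, 175, 70.6, 11.1 and 75.2 CPM in Teffectors, with 1.65 (SE 0.44, adjusted p = 0.0076). Both overlapped at their edges, Mcm6 through N replicate ds1 and WT replicates 2 and 4.

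Mcm5 had 8.11, 110 and 153 CPM in tumour Tregs, against 18.0, 5.57, 9.85, 80.4 and 13.7 CPM in Teffectors, and a log2 fold change of 2.04 (SE 0.62, adjusted p = 0.0233). Mcm4 had 82.3, 158 and 505 CPM in tumour Tregs, against 37.9, 42.4, 57.3, 164 and 57.8 CPM in Teffectors, and a log2 fold change of 1.28 (SE 0.43, adjusted p = 0.0422). For both genes the highest Teffector sample was ds1. The other 4 Teffectors lay below all tumour Tregs for Mcm4, and below all but 1 for Mcm5.

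The remaining pair of subunits did not pass the test. For Mcm7 the log2 fold change was 0.94 (SE 0.47, adjusted p = 0.222), and it shares exon bases with Ap4m1, Cops6, Mir25 and Mir93. Mcm2 had 6.40, 77.1 and 121 CPM in tumour Tregs, against 81.6, 28.6, 65.8, 230 and 21.5 CPM in Teffectors, and a log2 fold change of -0.18 (SE 0.49, adjusted p = 0.882). The 6 subunits, which form 1 ring in equal numbers as protein, thus had RNA differences between -0.18 and 2.04.

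Among the 10 genes for origin licensing and firing, 2 rose over Teffectors, Mcm10 and Gins2, and the median log2 fold change was 0.93. Mcm10 (chr2:4989714-5012791, - strand), which binds MCM when the helicase is activated, had 1.27, 14.7 and 64.5 CPM in tumour Tregs, against 0.0928, 0.0807, 1.82, 2.70 and 0 CPM in Teffectors. A single tumour Treg sample, WT replicate ds2, lay within the Teffector range, and the log2 fold change was 4.21 (SE 1.08, adjusted p = 0.0057). Gins2, a subunit of GINS, had 1.28, 28.0 and 90.9 CPM in tumour Tregs, against 0, 0, 0, 0.540 and 4.0 CPM in Teffectors (log2 fold change 5.21, SE 1.22, adjusted p = 0.0021). That rests on 19 reads in the 5 Teffector samples, and Gins2 shares 2758 exon bases with Gse1 on the opposite strand, so its counts are uncertain where the counting did not use strand.

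The other 8 origin genes did not pass, though Cdc6 was called with the replicate block, with the 45 libraries unjoined and by DESeq2. Cdc6, which loads MCM, had 4.02, 25.6 and 56.9 CPM in tumour Tregs, against 0.0619, 18.8, 0.274, 1.51 and 0 CPM in Teffectors (log2 fold change 2.71, SE 1.0, adjusted p = 0.0708). A single Teffector sample, replicate 3, lay inside the Treg range. Orc1 and Orc6 of the origin recognition complex had log2 fold changes of 1.87 and 0.85, Cdt1, the partner of Cdc6, had 0.84, and Cdc45 had 1.0. The other GINS subunits had -0.40 (Gins1), 0.86 (Gins3) and -0.31 (Gins4), against the 5.21 of Gins2. The Gins1 value held 1 Teffector sample, ds1, at 92.8 CPM, above all 18 tumour Tregs, while the other Teffectors lay between 0 and 4.86 CPM.

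None of the 6 clamp genes passed (the replicate block called Pcna, and DESeq2 called Rfc3, Rfc4 and Rfc5), with a median log2 fold change of 1.07 and 3 of 6 at an unadjusted p under 0.05, all higher. Pcna, the sliding clamp that holds polymerases on DNA, had 112, 286 and 448 CPM in tumour Tregs, against 208, 148, 170, 270 and 73.2 CPM in Teffectors (log2 fold change 0.64, SE 0.37, adjusted p = 0.315). The Teffectors lay mostly within the Treg range. The small subunits of the clamp loader had log2 fold changes of 1.55 (Rfc3), 1.59 (Rfc4) and 1.5 (Rfc5, adjusted p = 0.0981), and 0.65 for Rfc2, while the large subunit Rfc1 had -0.22.

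None of the 6 polymerase and primase genes passed either (the replicate block and DESeq2 called Prim1), with a median of 0.78 and 2 of 6 at an unadjusted p under 0.05, both higher. Prim1 and Prim2, the primase subunits, had log2 fold changes of 1.73 (adjusted p = 0.0955) and 0.40. Pola1 and Pola2 of polymerase alpha had 1.37 and 0.53. Pold1 and Pole, the catalytic subunits of the polymerases that copy the lagging and the leading strand, had 0.08 and 1.04.

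In single-strand binding and strand joining, 1 of 5 genes passed: Lig1, the ligase that seals Okazaki fragments. It had 45.8, 100.1 and 258 CPM in tumour Tregs, against 18.3, 29.6, 30.9, 61.6 and 2.29 CPM in Teffectors, with a log2 fold change of 2.01 (SE 0.52, adjusted p = 0.0060). Its groups overlapped through WT replicate ds2 of the Tregs and ds1 of the Teffectors. Fen1, which trims the fragments before ligation, had 1.11, and the subunits of the single-strand binding protein RPA had -0.25 (Rpa1), 0.76 (Rpa2) and 0.48 (Rpa3).

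E2f1, the regulator of many of these genes, had 0.318, 8.17 and 39.3 CPM in tumour Tregs, against 0.619, 2.82, 0.274, 1.51 and 0 CPM in Teffectors. All tumour Tregs but N replicate ds1 lay above the Teffectors. The log2 fold change was 3.08 (SE 1.05, adjusted p = 0.0464), and the call was lost in 18 of 23 fits that left out 1 sample. Of the 13 genes that rose, 11 had a promoter window and 4 of these 11 had the E2F letters (Lig1, Mcm3, Mcm5 and Mcm6), as did 8 of the 21 other genes with a window.

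Per kilobase of exon, the order of levels within a cell type differed between Tregs and Teffectors. Lengths were of all annotated exons merged (2771 bases for Rrm2 and 11012 for Rrm1), and places between genes depend on that choice. Pcna was first in all 3, at a median of 119 CPM per kb in tumour Tregs, 103 in lymph node Tregs and 70.7 in Teffectors. Rpa3 was second in all 3, at 76.3, 53.1 and 67.1 CPM per kb. Rrm2 was the third of the 39 in tumour Tregs (63.9 CPM per kb) and in lymph node Tregs (43.2), and stood at place 28 in Teffectors (2.68). Gins4 stood at places 7 and 8 in tumour and lymph node Tregs (42.1 and 35.0 CPM per kb), and at place 3 in Teffectors (44.5).

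**Figure D4:**
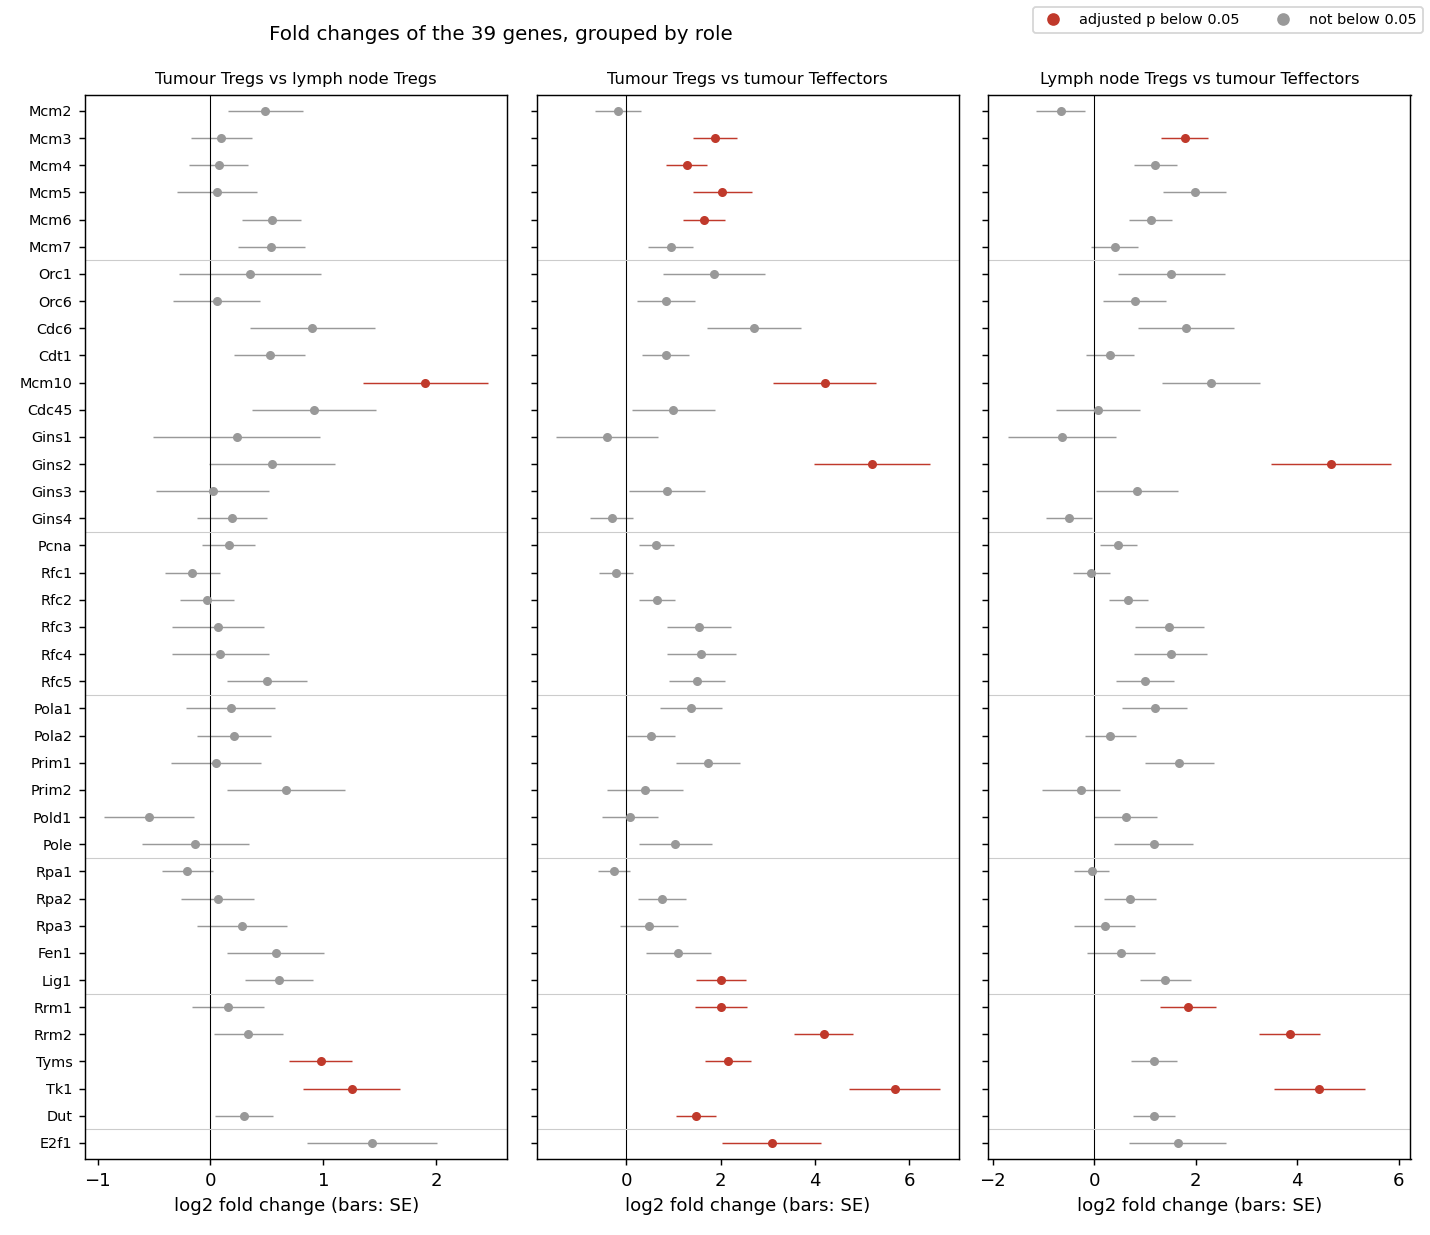
Points give the log2 fold change of each of the 39 genes and bars its SE, for tumour Tregs over lymph node Tregs, tumour Tregs over Teffectors, and lymph node Tregs over Teffectors, with red for an edgeR adjusted p under 0.05 and lines between roles. There are 3, 13 and 5 red points, all to the right of 0.

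The count over Teffectors fell to 1 (Rrm2) in double-sorted samples alone. It fell to 7 without the 8 tumour Treg samples whose melanoma markers stood above all Teffectors: Dut, Gins2, Lig1, Mcm4, Rrm2, Tk1 and Tyms. That fit had fewer samples, and of the 8 left out only N replicate ds2 was counted as double-sorted.

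WT tumour Tregs alone, which share the wild-type genotype with the Teffectors, had 9 genes higher and 0 lower, where 4.10% of all genes were higher and 1.61% lower. They were Rrm2 (log2 fold change 4.28, SE 0.66, edgeR adjusted p = 6.94e-06), Tk1 (5.80), Tyms (2.46), Gins2 (4.94), Rrm1 (2.30), Mcm10 (3.94), Mcm3 (1.77), E2f1 (3.87) and Lig1 (1.86). The median over the 39 was 1.44, against 0.07 over all genes. At an unadjusted p under 0.05, 18 were higher and 0 lower, where 1578 and 986 of all 14668 genes were. Rrm2 in the WT tumour Tregs was 163, 193, 184, 268 and 153 CPM in replicates 2, 3, 4, ds1 and ds2, and Tk1 was 71.0, 89.6, 53.5, 138 and 40.5 CPM, all above every Teffector sample. The 9 calls became 14 with the replicate block, 17 with DESeq2, 4 without Teffector replicate 2 or ds2, without all ds2 libraries or in a fit of those 2 groups alone, 2 without the melanoma marker samples, 1 in double-sorted samples, and 0 with limma on the authors' log2 values. Without the melanoma marker samples, WT tumour Tregs kept only ds1 and ds2, both double-sorted.

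Lymph node Tregs were also set against the tumour Teffectors, a comparison chosen after the values were seen, in which cell type and tissue cannot be told apart and which shares its Teffectors with the comparisons above. There 5 of the 39 genes were higher and 0 lower, where 2.19% of all genes were higher and 0.920% lower. They were Rrm2 (log2 fold change 3.85, SE 0.61, edgeR adjusted p = 2.09e-05), Tk1 (4.44, SE 0.89, adjusted p = 0.0009), Gins2 (4.67, SE 1.19, adjusted p = 0.0141), Mcm3 (1.78, SE 0.46, adjusted p = 0.0177) and Rrm1 (1.85, SE 0.55, adjusted p = 0.0473). Mcm5 (1.98, adjusted p = 0.0675) had the next lowest p and did not pass. The median was 1.11, against -0.04 over all genes. At an unadjusted p under 0.05, 15 of the 39 were higher and 0 lower, where 1031 and 838 of all 14668 genes were. The 5 calls became 2 without Teffector replicate 2 (Rrm2 and Tk1), 3 without Teffector replicate 4 or ds2, 3 without all ds2 libraries, 2 in a fit of those groups alone, 1 in double-sorted samples (Rrm2), 8 in single-sorted samples, 9 with the replicate block, 10 with limma on the authors' log2 values and 11 with DESeq2.

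Tumour Tregs, averaged over the 4 groups, had higher levels of 3 of the 39 genes than lymph node Tregs and lower levels of 0: Tyms, Mcm10 and Tk1. Of all genes tested, 5.84% were higher and 5.37% lower, so the 3 of 39 stood near that background. At an unadjusted p under 0.05, 6 were higher and 0 lower, where 1629 and 1725 of all 14668 genes were. The log2 fold change was positive for 34 of the 39, with a median of 0.23, against -0.08 over all genes. By role, 2 of 5 nucleotide synthesis genes and 1 of 10 origin genes passed, and none of the MCM, clamp, polymerase or strand joining genes.

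Tyms CPM in replicates 2, 3, 4, ds1 and ds2 was 138, 175, 55.3, 358 and 98.4 in N tumour Tregs, against 133, 110, 151, 81.6 and 27.7 in N lymph node Tregs. In WT Tregs it was 103, 205, 143, 460 and 81.9 in tumours, against 70.5, 58.9, 105, 46.6 and 60.1 in lymph nodes. The 4 samples of HetNrp1def had 81.5, 209, 140 and 91.3 in tumours, against 54.5, 83.5, 54.1 and 49.3 in lymph nodes.
HetWT Tregs had 230, 142, 176 and 66.4 in tumours, against 94.6, 204, 72.8 and 51.4 in lymph nodes. The tumour values overlapped the lymph node values in every group. In HetNrp1def and in WT all tumour values lay above all but 1 of the lymph node values. The average log2 fold change was 0.97 (SE 0.28, edgeR adjusted p = 0.0152).

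Mcm10 CPM was 12.1, 16.0, 17.0, 64.5 and 2.96 in N tumour Tregs, against 4.08, 13.7, 9.80, 3.61 and 1.44 in N lymph node Tregs. In WT Tregs it was 25.9, 13.9, 17.8, 14.3 and 1.27 in tumours, against 3.05, 1.58, 11.5, 0.951 and 5.25 in lymph nodes. HetNrp1def Tregs had 8.57, 42.2, 16.9 and 8.61 in tumours, against 1.85, 8.08, 2.48 and 5.42 in lymph nodes.
In HetNrp1def Tregs the groups did not overlap, while N replicates 2 and ds2 and WT replicate ds2 of the tumours lay among the lymph node values. HetWT Tregs had 10.8, 15.1, 30.0 and 5.85 in tumours, against 0.643, 9.31, 4.15 and 1.0 in lymph nodes, and overlapped through ds2. The average log2 fold change was 1.90 (SE 0.55, adjusted p = 0.0161).

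Tk1 CPM was 94.1, 75.6, 79.4 and 63.5 in HetNrp1def tumour Tregs, against 12.7, 30.3, 0.451 and 16.6 in HetNrp1def lymph node Tregs, with no overlap. HetWT Tregs had 112, 105, 98.4 and 49.0 in tumours, against 20.6, 68.9, 7.37 and 27.2 in lymph nodes, and overlapped through the ds2 tumour sample. WT tumour Tregs, with the values given above, all lay above the 35.9, 35.8, 30.4, 6.34 and 28.1 CPM of WT lymph node Tregs.
The N Tregs did not separate in this way. They had 88.2, 64.0, 45.2, 1.43 and 47.3 CPM in tumours, against 48.0, 65.4, 95.6, 101 and 25.5 in lymph nodes, and a log2 fold change of -0.44 in that group. The average log2 fold change was 1.25 (SE 0.43, adjusted p = 0.0489), and the call was lost in 30 of 36 fits that left out 1 sample, and with the replicate block.

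E2f1 (log2 fold change 1.43, SE 0.57, adjusted p = 0.104), Mcm6 (0.54, SE 0.26, adjusted p = 0.198) and Lig1 (0.61, SE 0.30, adjusted p = 0.217) had the next lowest p and did not pass. E2f1 was called by DESeq2 and with the 45 libraries unjoined, and the replicate block called Lig1 and Dut with Tyms and Mcm10, but not Tk1. Rrm2, whose Treg and Teffector samples did not overlap, had 0.34 (SE 0.31, edgeR adjusted p = 0.586). For 0 of the 39 genes did all tumour Tregs lie above all lymph node Tregs, a separation seen in 0.280% of all genes. The 5 genes with a negative value were Pold1 (-0.54), Rpa1 (-0.20), Rfc1 (-0.16), Pole (-0.13) and Rfc2 (-0.03). Across the 4 groups taken singly, 10 genes had a positive value in all 4 (Cdc6, Cdt1, Dut, E2f1, Fen1, Lig1, Mcm10, Mcm6, Rfc5 and Tyms), 14 in 3, 13 in 2, and 2 in 1 (Pola2 and Pold1).

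Markers of other cells moved with tissue. All 7 of the melanoma markers were higher in tumour Tregs than in lymph node Tregs, and their summed level was 4.60 to 3531 CPM in tumour Tregs (median 47.0), against 0.634 to 72.1 CPM in lymph node Tregs (median 13.9). In 8 tumour Treg samples the sum lay above the highest Teffector value of 77.2 CPM, and the mean log2 CPM of the 39 genes had a median of 5.90 (range 5.39 to 6.27) in those 8 and of 5.55 (5.15 to 5.97) in the other 10. Of those 8, only N replicate ds2 was counted as double-sorted, so the markers and the sorting cannot be told apart in these means. Without those 8 samples 0 of the 39 genes passed in the tissue comparison by edgeR. The log2 fold change of Tyms was then 0.81 (adjusted p = 0.289), that of Mcm10 1.06 (adjusted p = 0.552) and that of Tk1 1.15 (adjusted p = 0.338). That fit had fewer samples, and its share of all genes called is not given here. Its WT tumour Tregs were ds1 and ds2 only, both double-sorted. B cell markers were lower in tumour Tregs, 5 of 6, with a summed level of 3.33 to 39.7 CPM in tumour Tregs, against 2.85 to 631 CPM in lymph node Tregs. Of 4 dendritic cell markers, 2 were higher in tumour Tregs, with sums of 12.2 to 419 CPM in tumour Tregs, against 0 to 151 CPM in lymph node Tregs, and 1 of 3 endothelial markers was lower. The part of these cells in the result was not tested.

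Against Teffectors, 4 of the 7 melanoma markers were higher in tumour Tregs, where the Teffector sum ran from 3.28 to 77.2 CPM, and 0 of 7 were higher in lymph node Tregs. Of 4 dendritic cell markers 1 was higher in tumour Tregs, and their sums did not overlap, at 12.2 to 419 CPM in tumour Tregs, against 0 to 6.67 CPM in Teffectors. Of 7 macrophage and monocyte markers 1 was higher, with sums of 1.49 to 183 CPM in tumour Tregs, against 5.15 to 29.7 CPM in Teffectors. Lower in tumour Tregs were 3 of 6 B cell markers, with sums of 3.33 to 39.7 CPM, against 0 to 47.3 CPM in Teffectors, and 1 of 3 endothelial markers, with sums of 6.58 to 132 CPM, against 80.6 to 226 CPM in Teffectors. In lymph node Tregs 1 of 6 B cell markers was higher than in Teffectors and 1 of 5 T cell markers lower. The part of these cells in the differences from Teffectors was not tested. The 6 Treg markers were higher than in Teffectors in Tregs of both tissues, with sums of 3632 to 9470 CPM in tumour Tregs and 1892 to 5318 in lymph node Tregs, against 108 to 280 in Teffectors. Summed T cell markers overlapped, at 3147 to 6405 CPM in tumour Tregs and 3274 to 8268 in lymph node Tregs, against 4061 to 7709 in Teffectors.

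Leaving out HetNrp1def tumour replicate 3 alone, using double-sorted samples alone, or fitting limma to the authors' log2 values each left 0 of the 3 tissue calls, and leaving out all ds2 libraries left 1 (Mcm10). In the authors' log2 values Tk1 had the opposite sign (log2 fold change -0.20, limma adjusted p = 0.802), and single-sorted samples alone called 5 genes (Cdc45, Dut, Mcm5, Mcm6 and Tk1).

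In the 4 Treg groups taken singly, tumour and lymph node Tregs differed in 0 of the 39 genes by edgeR. The shares of all genes higher and lower were 0.566% and 0.225% in N, 0.348% and 0.307% in HetNrp1def, 0.164% and 0.0750% in HetWT, and 0.511% and 0.361% in WT. At an unadjusted p under 0.05 the counts of the 39 higher and lower were 0 and 0 in N, 3 and 1 in HetNrp1def (Tk1, Mcm6 and Rrm1, and Rfc1), 1 and 1 in HetWT (Prim2, and Pole), and 2 and 0 in WT (Tyms and Mcm7). Over all 14668 genes these counts were 843 and 551 in N, 637 and 1025 in HetNrp1def, 486 and 705 in HetWT, and 882 and 650 in WT. Mcm7 in WT tumour Tregs was 461 CPM in ds1, against 45.5 to 91.0 CPM in the other replicates. DESeq2 called 1 gene in WT (Tyms, higher) and 0 in the other groups, limma on the authors' log2 values called 0 in each, and single-sorted samples alone gave 1 in WT (Cdc45, higher).

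The median log2 fold change of the 39 genes between tissues was 0.13 in N, 0.69 in HetNrp1def, 0.40 in HetWT and 0.52 in WT, against 0.06, -0.10, -0.17 and 0.09 over all genes. The lowest p in N was that of Mcm10 (log2 fold change 1.78, SE 1.04, edgeR adjusted p = 0.641), in HetNrp1def that of Tk1 (2.37, SE 0.94, adjusted p = 0.280), in HetWT that of Pole (-2.19, SE 1.04, adjusted p = 0.582) and in WT that of Tyms (1.54, SE 0.54, adjusted p = 0.200). The tissue difference itself was compared between each of N, HetNrp1def and HetWT and WT by interaction terms. These gave 0 of the 39 genes, and 0% of all genes, in each of the 3. The median interaction was -0.32 in N, 0.19 in HetNrp1def and 0.08 in HetWT, against 0.00, -0.16 and -0.21 over all genes, and at an unadjusted p under 0.05 0, 0 and 2 of the 39 passed (in HetWT, Prim2 higher and Pole lower).

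The question of the study's design, how Tregs with and without Nrp1 compare, was put to the 39 genes in 4 comparisons within tumours. N, HetNrp1def and HetWT tumour Tregs against WT tumour Tregs, and HetNrp1def against HetWT, gave 0 of the 39 genes each by edgeR, where 0% of all genes passed. At an unadjusted p under 0.05, 1 gene was lower in N than in WT (Mcm7, log2 fold change -1.17) and 0 passed in the other 3. Mcm7 in WT tumour Tregs was 461 CPM in ds1 and 45.5 to 91.0 CPM in the other replicates, against 39.9 to 97.4 CPM in N. Over all 14668 genes the counts higher and lower at that p were 161 and 215, 60 and 281, 92 and 278, and 156 and 135, in the order of the comparisons above. DESeq2 and limma on the authors' log2 values gave 0 of the 39 each, while DESeq2 called 3, 6, 19 and 8 of all genes. The medians over the 39 were -0.10, 0.02, 0.08 and -0.14, against -0.08, -0.12, -0.10 and -0.06 over all genes.

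The group means of the 39 genes lay close together in tumours: 5.61 ± 0.27 log2 CPM in N, 5.81 ± 0.32 in HetNrp1def, 5.69 ± 0.41 in HetWT and 5.67 ± 0.31 in WT (SD, n = 5, 4, 4 and 5). Each difference was smaller than the spread within its groups. A miss of the threshold with 4 or 5 samples a group does not show equal levels.

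**Figure D5:**
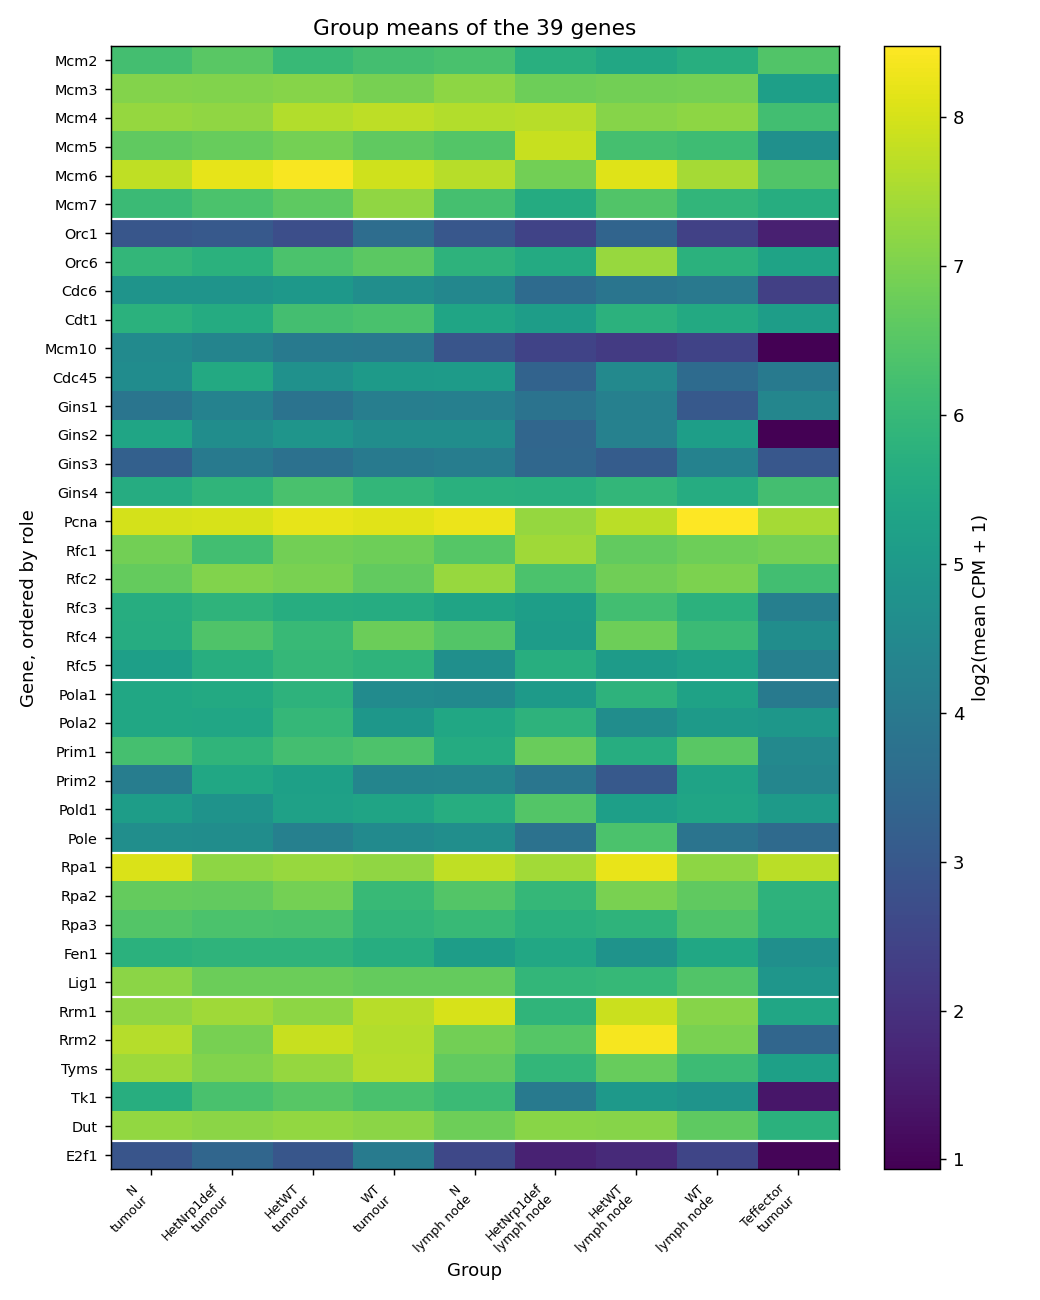
Colours give log2(mean CPM + 1) of each of the 39 genes, ordered by role, in the 9 groups, from dark (low) to yellow (high). The Teffector column is darkest at Gins2, Mcm10, E2f1 and Tk1, and Pcna and Mcm6 are among the brightest rows of the tumour Treg columns.

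In lymph nodes the same 4 comparisons also gave 0 of the 39 genes and 0% of all genes by edgeR. At an unadjusted p under 0.05 the counts higher and lower were 0 and 0 for N against WT, 1 and 1 for HetNrp1def against WT (Mcm5, 1.74 and Pcna, -1.20), 4 and 1 for HetWT against WT (Pole, Rrm2, Rpa1 and Orc6, and Prim2), and 1 and 5 for HetNrp1def against HetWT (Mcm5, and Rrm1, Rrm2, Pole, Mcm6 and Orc6). Over all 14668 genes these counts were 254 and 362, 578 and 322, 423 and 176, and 498 and 454, in the same order. DESeq2 called 1 of the 39, Rrm1, lower in HetNrp1def than in HetWT, and 0 in the other 3, while it called 19, 241, 30 and 315 of all genes. Limma on the authors' log2 values gave 0. The medians over the 39 were 0.27, -0.26, 0.13 and -0.41, against -0.10, -0.01, 0.11 and -0.12 over all genes.

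The lowest p values were those of the ribonucleotide reductase genes in HetNrp1def against HetWT lymph node Tregs. Rrm1 had 73.6, 94.4, 1.35 and 60.8 CPM in HetNrp1def replicates 2, 4, ds1 and ds2, against 173, 123, 554 and 76.5 CPM in HetWT (log2 fold change -2.01, SE 0.70, edgeR adjusted p = 0.646). Rrm2 had 118, 66.3, 135 and 33.5 CPM in HetNrp1def, against 131, 154, 948 and 84.9 CPM in HetWT (-1.90, SE 0.67, adjusted p = 0.646). In both genes the groups overlapped and the highest sample was HetWT ds1. That sample also held the highest Pole value, 257 CPM, and HetNrp1def ds1 held the highest Mcm5, 780 CPM.

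Other genes of the same pathways came from lists chosen with earlier results of these data known, and their counts stand beside the 5.43% of all genes higher and 5.79% lower in tumour Tregs than in Teffectors, and the 5.84% higher and 5.37% lower than in lymph node Tregs. Of 34 further origin and fork genes, 0 differed between tumour and lymph node Tregs (the lowest p was that of Clspn, a checkpoint mediator, 1.17, adjusted p = 0.0743), and 4 were higher in tumour Tregs than in Teffectors: Pclaf, a PCNA-binding protein (log2 fold change 4.48), Gmnn, the inhibitor of Cdt1 (2.82), Chtf18 of an alternative clamp loader (4.44) and the nuclease Dna2 (3.19). Pclaf alone was also higher in lymph node Tregs (3.87). Of 30 further nucleotide synthesis genes, 2 were higher in tumour Tregs than in Teffectors, among them Samhd1, which breaks down dNTPs (1.05), and 1 was lower, Prps2 of purine synthesis (-1.30), shares near that background. Between the tissues, Cmpk1 was higher in tumour Tregs (0.73) and Nme2 (-0.99) and Gart (-0.97) were lower, again near it. The medians over the 34 and the 30 genes were 0.12 and -0.27 against Teffectors and 0.02 and -0.43 between tissues, where the 39 genes had 1.28 and 0.23.

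Of 28 genes of the E2F, RB and G1/S cyclin system, 3 were higher in tumour than in lymph node Tregs, namely the inhibitor genes Cdkn1a (2.58) and Cdkn2c (1.57) and the cyclin gene Ccnd1 (2.29). Against Teffectors, Ccna2, the S phase cyclin, was higher by 5.19 in tumour Tregs and 4.52 in lymph node Tregs, Cdkn1a by 7.63 and 5.05, and E2f2 by 2.04 in lymph node Tregs. Of 12 genes that build chromatin behind the fork, 0 differed between the tissues (lowest p Hells, 0.72, adjusted p = 0.184). Against Teffectors 5 were higher in tumour Tregs: Chaf1a, a histone chaperone subunit (6.17), Uhrf1, which guides maintenance methylation (3.75), Asf1b (3.65), Hells (2.29) and Slbp, which binds histone mRNA (2.12). Chaf1a (5.29) and Uhrf1 (3.51) were higher in lymph node Tregs as well. All these calls are edgeR's at an adjusted p under 0.05 over all genes, and 0 genes of these last 2 lists were lower.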

How the data were processed

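RNA of T cells, 5000 sorted cells per Treg library, was amplified with the SMARTer ultra-low-input kit v3, made into Nextera XT libraries and read on a NextSeq 500, per the labels' protocols. The authors deposited raw counts per gene for 45 libraries, and the submitters' processing notes name STAR, featureCounts, limma and mm10. The sources used here do not give versions, the strand setting or the handling of shared reads. A second table deposited by the authors holds normalized log2 values of 10832 of the 23420 genes, with no further step given in these sources.

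The 39 genes and all lists were chosen with earlier results of these data known. Libraries of 1 group whose counts over genes with at least 10 reads gave a chi-square per degree of freedom under 5 were joined by summing (HetNrp1def and HetWT: tumour ds1 with 4, lymph node 3 with 4) and kept the name of replicate 4, leaving 41 samples. All 9 groups entered 1 edgeR 4.0.16 quasi-likelihood fit (R 4.3.3, TMM factors 0.552 to 1.22, filterByExpr, robust, 32 residual degrees of freedom), with Benjamini-Hochberg adjustment over 14668 genes and a threshold of 0.05. CPM use TMM-scaled library sizes, and log2 CPM a prior count of 2. The steps were tested on simulated data. Values in every Treg sample were given for genes that passed in the tissue average. For genes that passed in averaged tumour Tregs against Teffectors, each Teffector value was given, with the lowest, median and highest of the tumour Tregs. In the tissue average and in lymph node Tregs against Teffectors, where fewer than 6 passed, further genes up to 6 by lowest p were named as not passing. In the single-group tissue comparisons, the gene with the lowest p and those at an unadjusted p under 0.05 were named. Other genes of the 39 were named after their values were seen. Of other lists, up to 5 called genes, or the 1 with the lowest p, were named, except 1 that is not reported here. Pclaf was matched as 2810417H13Rik. The comparison of lymph node Tregs with Teffectors was added after the values were seen.

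Alternatives were DESeq2 1.42.0, limma 3.58.1 on the authors' log2 values, RLE factors, no filter, 45 libraries unjoined, a replicate block, the groups of a comparison alone, single-sorted, double-sorted or no ds2 samples, each sample left out, and, chosen after seeing the data, no samples with raised melanoma markers. The limma fit also used all 45 libraries, so the near-identical pairs entered it as separate samples, and its p-values treat them as independent. Same-numbered samples deviated together in every pair (r above 0.1) in 3 of 13 comparisons, all of lymph node groups (HetNrp1def or HetWT against WT, HetNrp1def against HetWT, lowest r 0.117). In the others some pairs did so, from 1 of 3 in the tissue comparison of HetWT to 4 of 5 in that of N and in N against WT in tumours. The main fit had no term for replicate. Lengths are of merged exons of GENCODE on mm10.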

Additional observations from a re-analysis of the deposited data

Results flagged for a closer look

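Among the groups of 4 or 5 samples, 72 tests on the mean of the 39 genes and on the genes named most asked whether 1 sample lay far from the rest of its group, and 11 did, where chance flags about 1 in 20. Lymph node HetNrp1def replicate ds1 had a mean log2 CPM of 3.79 over the 39 genes, against 5.00 to 5.25 in the other 3. Its mean over all genes tested was low as well, at 2.30, against 2.81, 2.80 and 2.96 in replicates 2, ds2 and 4. The same sample had 1.35 CPM of Rrm1 (others 60.8 to 94.4) and 0.225 CPM of Gins2 (others 11.5 to 14.5), and its NK cell markers summed to 833 CPM, the highest of all samples. The part of those cells in its values was not tested.

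For Gins2, the sample apart was replicate 3 in HetNrp1def tumour Tregs, at 51.3 CPM (others 13.1 to 16.5), ds1 in WT tumour Tregs, at 1.28 CPM (others 16.1 to 36.4), and ds2 in Teffectors, at 4.0 CPM (others 0 to 0.540). For Tk1 it was ds1 in N tumour Tregs, at 1.43 CPM (others 45.2 to 88.2), ds2 in HetWT tumour Tregs, at 49.0 CPM (others 98.4 to 112), and ds1 in WT lymph node Tregs, at 6.34 CPM (others 28.1 to 35.9). WT tumour replicate ds2 had 1.27 CPM of Mcm10 (others 13.9 to 25.9), and WT lymph node replicate ds2 had 86.9 CPM of Rrm1 (others 140.0 to 158). Of the 11 values, 10 were of double-sorted samples.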

How the results depend on the processing

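Of the genes called, 1 changed sign under an alternative: Tk1 in the tissue average, with a log2 fold change of -0.20 with limma on the authors' log2 values. Medians of the 39 genes, which have no test, changed sign under some alternative in the tissue comparison of N and of WT, in N, HetNrp1def and HetWT against WT in tumours, in N and HetWT against WT in lymph nodes and in all 3 interactions, but not in the tissue average or against Teffectors. The count of the 39 genes that passed in the tissue average (3) was 0 in double-sorted samples, 0 with the authors' log2 values, 0 without melanoma marker samples, 1 without all ds2 libraries, 5 in single-sorted samples and 0 to 3 when 1 sample was left out. For tumour Tregs against Teffectors (13) it was 1, 8 and 7 in double-sorted samples, with the authors' log2 values and without melanoma marker samples, and 9 to 14 leaving 1 sample out. For WT tumour Tregs against Teffectors (9) it was 14 with the replicate block, 1 in double-sorted samples, 4 without ds2 libraries, 4 with those groups alone, 17 with DESeq2, 0 with the authors' log2 values, 2 without melanoma marker samples and 4 to 10 leaving 1 sample out. For lymph node Tregs against Teffectors (5) it was 9 with the replicate block, 8 and 1 in single-sorted and double-sorted samples, 3 without ds2 libraries, 2 with those groups alone, 11 with DESeq2, 10 with the authors' log2 values and 2 to 6 leaving 1 sample out. The tissue comparison in WT gave 1 in single-sorted samples and 1 with DESeq2, and HetNrp1def against HetWT in lymph nodes 1 with DESeq2. The cause was not tested. Apart from DESeq2 in the genotype comparisons, these counts are given without the share of all genes called under the same alternative. They show only how many of the 39 passed.

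The replicate block gave 4 genes in the tissue average (2 of the 3, with Lig1 and Dut) and 16 in tumour Tregs against Teffectors (all 13, with Cdc6, Pcna and Prim1), and changed no count in the genotype comparisons, including those where replicate numbers paired the samples. Medians of the 39 genes that moved by more than the spread within groups were those of the tissue comparison in WT (-0.19 with the authors' log2 values, 0.10 without melanoma marker samples) and in HetNrp1def (0.18 with the authors' values), tumour Tregs against Teffectors (0.67) and WT tumour Tregs against Teffectors (0.63), both with the authors' values, the interaction of N (0.17 with the authors' values, 0.10 without melanoma marker samples) and of HetNrp1def (0.62 without ds2 libraries, 0.58 with the authors' values), N against WT in tumours (0.30 without melanoma marker samples), and N against WT in lymph nodes (-0.12 to 0.44 leaving 1 sample out, the lowest without N replicate ds1). RLE factors moved the median of all genes in WT tumour Tregs against Teffectors to 0.19, against 0.07 with TMM. Low counts in the 5 Teffectors (19 reads of Gins2, 43 of Tk1, 49 of Mcm10 and 72 of E2f1) limit the size of these fold changes.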

Other observations

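The genes of mitosis, which follow replication in the cell cycle, were for the most part higher in Tregs than in Teffectors. Of 24 mitosis genes, 23 were higher in tumour Tregs than in Teffectors and 0 lower, with a median log2 fold change of 4.82, and 18 were higher in lymph node Tregs than in Teffectors and 0 lower, with a median of 4.09 (edgeR adjusted p under 0.05). Of all genes tested, 5.43% were higher and 5.79% lower in tumour Tregs than in Teffectors, with a median of -0.13. For lymph node Tregs against Teffectors the shares were 2.19% and 0.920%, and the median -0.04. Mki67, a marker of dividing cells, averaged 328 CPM in tumour Tregs and 237 CPM in lymph node Tregs, against 10.8 CPM in Teffectors, with log2 fold changes of 4.91 (adjusted p = 2.09e-12) and 4.42 (adjusted p = 1.15e-10). Cdk1, the kinase that drives mitosis, had 7.80 and 6.75, the cyclin gene Ccnb2 7.59 and 6.64, Ube2c, which helps degrade the cyclins, 7.50 and 6.61, and Top2a, which untangles the copied chromosomes, 4.46 and 3.95. Between the tissues 5 of the 24 were higher in tumour Tregs than in lymph node Tregs and 0 lower, with a median of 0.90: Cenpe (1.62), Ttk (1.65), Tpx2 (1.43), Ccnb2 (0.95) and Cenpa (0.87). Over all genes tested, 5.84% were higher and 5.37% lower between the tissues, with a median of -0.08.

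The promoter windows of the other lists were searched for the same letters. Of genes with a window, the E2F letters were found for 34.5% of other origin and fork genes, 35.0% of the E2F, RB and G1/S cyclin genes, 27.3% of chromatin replication genes, 7.69% of other nucleotide synthesis genes and 4.76% of mitosis genes. The CHR letters were found for 16 of 21 mitosis genes (76.2%). These shares describe letters and were not tested.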
